A study of Mus musculus with 8 samples.

Results

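Itaconate and arginine metabolism was followed through 9 genes in mouse bone marrow-derived macrophages (BMDM): *Acod1*, *Nos2*, *Arg1*, *Arg2*, *Ass1*, *Asl*, *Odc1*, *Sat1* and *Slc7a2*. They were taken by symbol from a gene table with 53819 rows, and they were chosen by their levels with bilirubin against vehicle in these same libraries. Their bilirubin-against-vehicle values are therefore given as a description. Where the text says that one of them was called, this is its place in the fit over all genes, and not independent evidence of a change, since the choice had used the same values. BMDM came from 4 female BALB/cJ mice aged 8 weeks, were grown in 25 ng/mL of the growth factor M-CSF until day 5, and were then cultured for 48 h with DMSO vehicle or 2.5 µM bilirubin, a breakdown product of heme. Each mouse gave 1 vehicle and 1 bilirubin culture, numbered here by mouse, which makes 8 poly-A RNA libraries. All cultures shared the M-CSF differentiation, and the labels name no stimulus for them beyond bilirubin or vehicle. The comparison asks whether bilirubin alters gene expression in macrophages.

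Macrophages use arginine along competing routes. Inducible nitric oxide synthase, encoded by *Nos2*, makes nitric oxide and citrulline from arginine, while the arginases make ornithine and urea, and ornithine feeds proline and the polyamines. Itaconate, an acid made from the tricarboxylic acid cycle intermediate cis-aconitate by the *Acod1* product, accumulates in activated macrophages and inhibits succinate dehydrogenase. *Nos2* and *Acod1* are textbook markers of macrophages activated by interferon and bacterial products, and *Arg1* of mouse macrophages activated by IL-4.

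*Acod1* and *Ass1*, the most abundant of the members that rose, had a RefSeq promoter window of 300 bases (250 before the start site and 50 from it, GRCm38.p6), and these windows are shown because both genes moved together in every mouse. Of the 9 genes, 4 had such a window (*Acod1*, *Ass1*, *Odc1* and *Sat1*). Capitals mark matches on either strand to 4 motifs. They are GGAANTTCC, the core of an NFκB-type site, the TATA box with the letters TATAAA, the E-box with the letters CACGTG, and the GC box with the letters GGGCGG. The *Acod1* window is chr14:103046762-103047061 on the plus strand, and the *Ass1* window is chr2:31470020-31470319 on the plus strand.
Acod1: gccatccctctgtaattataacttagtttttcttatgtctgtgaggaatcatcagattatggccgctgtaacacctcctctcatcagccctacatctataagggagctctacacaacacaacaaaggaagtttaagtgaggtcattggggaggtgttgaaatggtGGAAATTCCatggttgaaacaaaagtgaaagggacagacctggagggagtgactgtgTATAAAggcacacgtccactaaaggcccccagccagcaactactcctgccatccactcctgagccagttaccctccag
Ass1: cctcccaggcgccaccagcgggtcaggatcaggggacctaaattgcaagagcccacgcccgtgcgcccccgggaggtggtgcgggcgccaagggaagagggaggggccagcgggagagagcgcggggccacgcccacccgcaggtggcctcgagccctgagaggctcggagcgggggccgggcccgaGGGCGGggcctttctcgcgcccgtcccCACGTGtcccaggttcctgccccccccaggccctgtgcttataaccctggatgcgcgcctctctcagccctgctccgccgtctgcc

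The *Acod1* window held GGAANTTCC from base -85 to -77 and TATAAA from -28 to -23, counted from the start site. Over the 32851 windows in the RefSeq table, 0.9% held GGAANTTCC and 13.6% held TATAAA. The *Ass1* window held neither, and had GGGCGG from -63 to -58 (present in 35.7% of all windows) and CACGTG from -36 to -31 (7.2%). The windows also differed in base composition, with 47% G and C and 2 CG pairs for *Acod1*, against 74.0% and 27 CG pairs for *Ass1*. *Odc1* and *Sat1* resembled *Ass1* in this, with 78.0% and 60.3% G and C, 42 and 21 CG pairs, and matches to GGGCGG alone among the 4 motifs. The letters were picked with the sequences in view, and a match describes the sequence and not binding.

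Libraries held 34142781 to 47071714 counts on genes. Levels are given as CPM, counts scaled to library size with edgeR's TMM factors, and levels of different genes are compared as TPM, which also corrects for transcript length. A gene is called changed where the quasi-likelihood test of edgeR, fitted to treatment and mouse, gave a Benjamini-Hochberg adjusted p under 0.05 over the 13722 genes with enough counts. By this rule 7.53% of the tested genes were called, 4.49% higher and 3.04% lower with bilirubin, and 10.6% had groups that did not overlap. The cultures of mouse 1 stood apart most, with root mean square distances of 0.42 log2 CPM from the others of their group for both its libraries, against 0.30 to 0.37 for the other 6. Without mouse 1 the number of genes called went from 1033 to 1910, so member values without it are given where they change a call.

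All 9 genes passed the count filter, *Nos2* only through its bilirubin cultures, where it was high, so that it had to differ once tested. In the fit over all genes *Acod1*, *Ass1*, *Nos2*, *Arg2* and *Slc7a2*, 5 of the 9, were among those called higher, 0 were among those called lower, and 4 were not called. The groups did not overlap for 4 of them (*Acod1*, *Ass1*, *Nos2* and *Arg2*). Since the choice of genes used this contrast, nothing is read from these counts against the shares of all genes. Bulk libraries cannot tell apart more RNA per cell from more cells that carry the RNA.

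**Figure D1:**
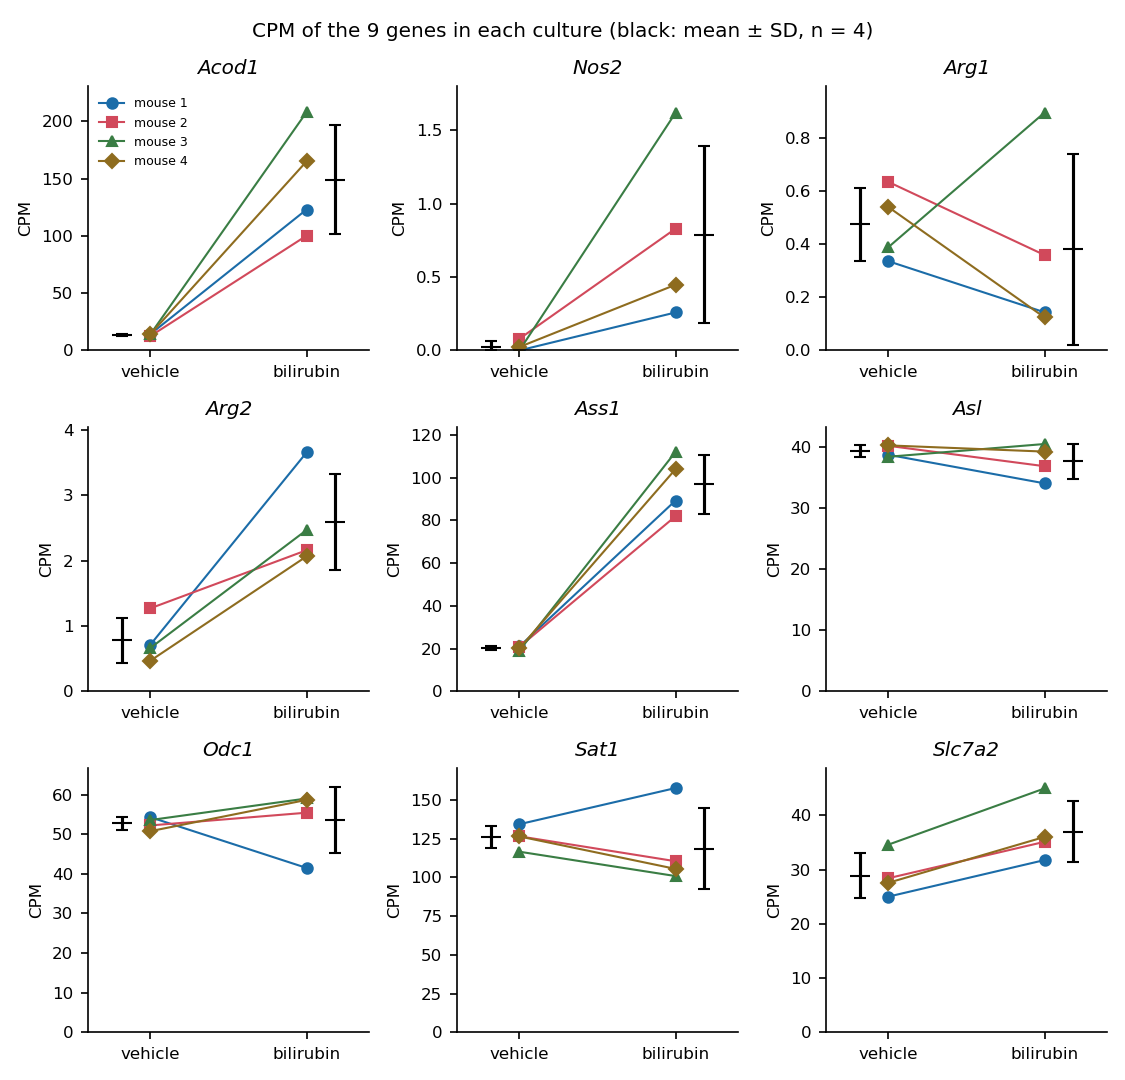
CPM (linear axes from 0) of each gene in the vehicle and bilirubin culture of each mouse, joined by a line, with the mean and SD of 4 cultures in black (lower bars stop at 0). *Acod1*, *Nos2*, *Arg2* and *Ass1* rose in all 4 mice with no overlap of the groups, while the lines of *Arg1*, *Asl*, *Odc1* and *Sat1* run in both directions.

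*Acod1* (ENSMUSG00000022126, chr14:103284413-103294009 on the plus strand of GRCm39, 5 exons) encodes aconitate decarboxylase 1, the enzyme that makes itaconate. Its CPM in mice 1 to 4 was 14.2, 12.5, 14.2 and 14.2 with vehicle, and 123, 100.1, 208 and 165 with bilirubin. Every bilirubin culture was above every vehicle culture, and the spread widened from a coefficient of variation of 6.2% to 31.9%. The fitted change was 3.39 ± 0.13 on the log2 scale (SE, n = 4 mice), or 10.5-fold, and single mice ranged from 3.00 in mouse 2 to 3.87 in mouse 3. All counts fell on 1 transcript, Acod1-201 of 2623 bases.

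*Nos2* (ENSMUSG00000020826, chr11:78811613-78851080, plus strand, 27 exons), which encodes inducible nitric oxide synthase, was nearly silent. Vehicle libraries held 0, 3, 0 and 1 counts for mice 1 to 4, and bilirubin libraries 9, 30, 65 and 18. The groups did not overlap, with 4 counts in all under vehicle and 122 under bilirubin. A floor of 3 counts per library puts the mean CPM with bilirubin, 0.789 ± 0.603 (SD, n = 4), at least 11.2-fold higher than vehicle. By mouse the bound was 4.1-fold in mouse 1, 10.5-fold in mouse 2, 23.6-fold in mouse 3 and 6.3-fold in mouse 4. The level stayed low, at 0.294 ± 0.226 TPM with bilirubin, which was higher than 4.4% of the tested genes, whereas *Acod1* at 91.5 ± 28.8 TPM was higher than 88.6% of them. The exact 95% Poisson interval of the 9 counts of mouse 1 runs from 4.1 to 17.1, and that of its vehicle count of 0 reaches 3.7, so in this mouse alone the counts are few, and such intervals cover counting error only.

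*Arg1* and *Arg2* encode the arginases, cytosolic and mitochondrial, which compete with nitric oxide synthase for arginine. *Arg1* (ENSMUSG00000019987, chr10:24791118-24803817, minus strand, 8 exons) had 16, 24, 17 and 23 counts in the vehicle libraries and 5, 13, 36 and 5 in the bilirubin libraries of mice 1 to 4. As CPM this was 0.337, 0.636, 0.390 and 0.541 against 0.144, 0.360, 0.897 and 0.124. It was lower with bilirubin in mice 1, 2 and 4 and higher in mouse 3, and the bilirubin cultures reached both below and above all vehicle cultures. The fitted difference was -0.55 ± 0.54 (log2, SE, n = 4) and was not called. Without mouse 3 it was -1.33, the lowest value on leaving out a mouse, and *Arg1* was still not called. The exact 95% Poisson interval of a library with 5 counts runs from 1.6 to 11.7 and that of the 36 counts from 25.2 to 49.8, so mouse 3 lay apart from mice 1 and 4 by more than counting error.

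*Arg2* (ENSMUSG00000021125, chr12:79177524-79203075, plus strand, 8 exons) had a CPM of 0.715, 1.27, 0.665 and 0.470 under vehicle and 3.65, 2.16, 2.47 and 2.07 with bilirubin in mice 1 to 4. The groups did not overlap, and the smallest difference was in mouse 2, whose vehicle culture was the highest of the 4. The fitted change was 1.77 ± 0.29 (log2, SE, n = 4), or 3.4-fold, with 0.74 in mouse 2 and 1.82 to 2.28 in the others. *Arg2* was no longer called when mouse 3 or mouse 4 was left out, at 1.72 and 1.66. As TPM, *Arg2* was 0.9 to 2.2 times *Arg1* in the vehicle cultures and 2.9 to 26.4 times in the bilirubin cultures, with mouse 3 at the low end and mouse 1 at the high end. The arginase RNA of these cultures was thus low, and mostly *Arg2* with bilirubin, at 3.13 ± 1.03 TPM against 0.439 ± 0.415 for *Arg1* (SD, n = 4).

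*Ass1* and *Asl* encode argininosuccinate synthase and lyase, which turn the citrulline left by nitric oxide synthase back into arginine. *Ass1* (ENSMUSG00000076441, chr2:31352181-31410862, plus strand, 16 exons) had a CPM of 21.0, 20.8, 19.1 and 20.1 under vehicle and 89.3, 81.9, 112 and 103.9 with bilirubin in mice 1 to 4. The groups lay far apart, with coefficients of variation of 4.3% and 14.1%. The fitted change was 2.25 ± 0.09 (log2, SE, n = 4), or 4.7-fold, from 1.97 in mouse 2 to 2.55 in mouse 3. *Asl* (ENSMUSG00000025533, chr5:130040099-130058088, minus strand, 17 exons) showed no such difference, with a CPM of 38.7, 40.2, 38.4 and 40.3 against 34.1, 36.9, 40.5 and 39.3. Its groups overlapped, it was higher with bilirubin in mouse 3 alone, and its fitted difference was -0.07 ± 0.05 and was not called. The ratio of *Ass1* to *Asl* in TPM was 0.45 ± 0.05 under vehicle and 2.19 ± 0.24 with bilirubin (SD, n = 4), so that the synthase was below the lyase in all 4 vehicle cultures and above it in all 4 bilirubin cultures.

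*Odc1* encodes ornithine decarboxylase, which makes the polyamine putrescine from ornithine, and *Sat1* encodes spermidine/spermine N1-acetyltransferase, which starts polyamine breakdown. *Odc1* (ENSMUSG00000011179, chr12:17594383-17601507, plus strand, 12 exons) had a CPM of 54.3, 52.2, 53.6 and 50.8 under vehicle and 41.5, 55.4, 59.0 and 58.7 with bilirubin. The bilirubin culture of mouse 1 was the lowest of all 8 and the other 3 bilirubin cultures were the highest. The fitted difference was 0.01 ± 0.09 (log2, SE, n = 4) and was not called, and its sign was negative with scaling by library size alone and without mouse 2, 3 or 4. Without mouse 1 it was 0.14 and was called higher.

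*Sat1* (ENSMUSG00000025283, chrX:153996128-153999452, minus strand, 6 exons) mirrored it, with a CPM of 134, 127, 117 and 126 under vehicle and 158, 110, 101 and 105 with bilirubin in mice 1 to 4. The bilirubin culture of mouse 1 was the highest of all 8 and the other 3 were the lowest. The fitted difference was -0.11 ± 0.08 and was not called, but without mouse 1 it was -0.22 and was called lower. Values of *Odc1* and *Sat1* thus rest on whether mouse 1 is counted. The ratio of *Odc1* to *Sat1* in TPM was 0.189 to 0.227 in the vehicle cultures, 0.135 in the bilirubin culture of mouse 1, and 0.247 to 0.291 in the other bilirubin cultures.

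*Slc7a2* (ENSMUSG00000031596, chr8:41315431-41375345, plus strand, 12 exons) encodes CAT-2, a transporter that brings arginine and other cationic amino acids into the cell. Its CPM was 25.0, 28.4, 34.6 and 27.6 under vehicle and 31.8, 35.1, 45.0 and 36 with bilirubin in mice 1 to 4. The groups overlapped, because mouse 3 was highest in both, but the difference within a mouse was nearly the same throughout, at 0.31 to 0.38 on the log2 scale. The fitted change was 0.35 ± 0.04 (log2, SE, n = 4), or 1.28-fold. It was called with the mouse in the model, and not called without the replicate block, where it was 0.36 ± 0.11.

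**Figure D2:**
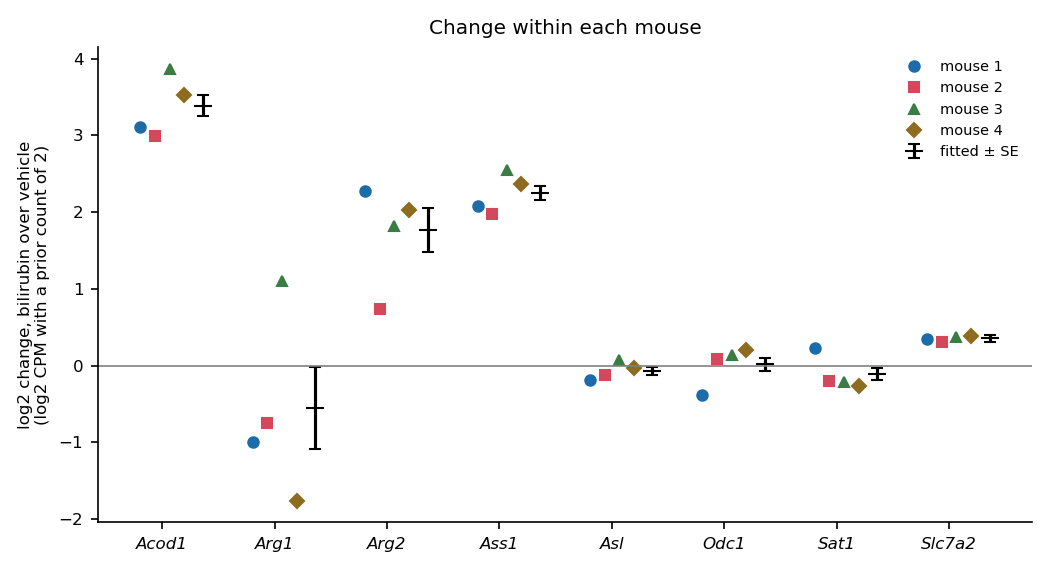
Log2 change from vehicle to bilirubin within each mouse (log2 CPM with a prior count of 2), with the fitted change and its SE in black. *Nos2* is not drawn, since its vehicle counts were at the floor. *Slc7a2* varied least between mice (0.31 to 0.38), *Arg1* ranged from -1.76 to 1.11, and mouse 1 lay on the opposite side of 0 from the other mice for *Odc1* and *Sat1*.

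The order of the mice varied with gene and treatment, and ranks are given as a description of the 9 chosen genes. Their share over all tested genes was not computed. Mouse 3 was the highest of the 4 bilirubin cultures for 7 of the 9 genes, all but *Arg2* and *Sat1*. Under vehicle it was the highest of the 4 cultures for *Slc7a2* alone and the lowest for *Ass1*, *Asl* and *Sat1*. Mouse 1 was highest with bilirubin for *Arg2* and *Sat1* and lowest for *Nos2*, *Asl*, *Odc1* and *Slc7a2*. *Acod1* and *Ass1* ranked the bilirubin cultures alike, with mouse 3 first, then 4, 1 and 2.

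As TPM the order under vehicle was *Sat1* (205 ± 16), *Asl* (46.7 ± 6.6), *Odc1* (41.5 ± 1.0), *Ass1* (20.8 ± 0.9), *Acod1* (8.75 ± 0.58), *Slc7a2* (7.78 ± 0.95), *Arg2* (0.964 ± 0.422), *Arg1* (0.566 ± 0.161) and *Nos2* (0.012 ± 0.018; SD, n = 4). Among neighbours in this order, *Acod1* and *Slc7a2* overlapped, as did *Arg2* and *Arg1*. With bilirubin *Ass1* (95.9 ± 13.2) and *Acod1* (91.5 ± 28.8) moved above *Asl* (43.6 ± 2.5) and *Odc1* (41.4 ± 4.8), and stayed below *Sat1* (186 ± 48). *Ass1* and *Acod1* overlapped each other, *Asl* overlapped *Odc1*, and *Arg1* overlapped *Nos2*. *Slc7a2* at 9.69 ± 1.89 TPM kept its place. *Acod1* thus went from a level above 38.6% of the tested genes to one above 88.6%, and *Ass1* from above 57.7% to above 89.1%.

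**Figure D3:**
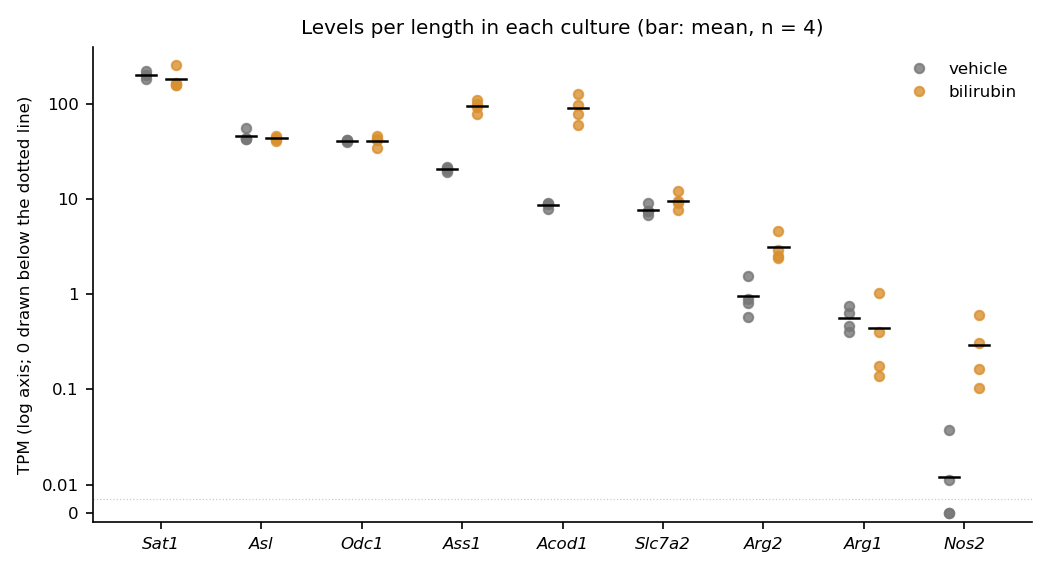
TPM (log axis, values of 0 drawn at the bottom) of each gene in the 4 vehicle and 4 bilirubin cultures, ordered by the vehicle mean, with black bars for means. *Acod1* and *Ass1* pass *Asl* and *Odc1* with bilirubin, while *Arg1* and *Nos2* stay at the bottom.

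Transcript shares were read from the estimated counts of each transcript. *Acod1*, *Arg1*, *Arg2* and *Ass1* lay on 1 coding transcript each, for at least 99.7% of counts in every library. The few vehicle counts of *Nos2* (0, 3, 0 and 1 in mice 1 to 4) were assigned to Nos2-203. Its bilirubin counts (9, 30, 65 and 18) were all on Nos2-201, and the vehicle counts are too few to compare shares. *Sat1* was spread most widely, with 64.1 ± 1.4% of counts on its coding transcripts under vehicle and 65.3 ± 1.5% with bilirubin (SD, n = 4), and 30.9 ± 1.7% and 30.1 ± 2.1% on transcripts that retain an intron. *Odc1* had 9.6 ± 1.3% and 7.4 ± 1.5% of counts on Odc1-205, annotated as a target of nonsense-mediated decay. The coding share of *Sat1* overlapped between the groups. The share of Odc1-205 ran from 8.4% to 11.1% under vehicle and from 5.1% to 8.3% with bilirubin. The nearest cultures, at 8.36% and 8.30%, were almost alike. How many transcripts over all genes separate in this way was not computed, so nothing is read from it.

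*Slc7a2* was divided between transcripts with different coding sequences. Slc7a2-203 and Slc7a2-202, which share a coding sequence of 1974 bases, took 24.8%, 89.6%, 79.7% and 84.5% of the vehicle counts in mice 1 to 4. With bilirubin they took 80.2%, 95.7% and 99.8% in mice 1, 2 and 4 and all counts in mouse 3. The rest was nearly all on Slc7a2-201, with a coding sequence of 1971 bases. The vehicle library of mouse 1 stood apart, with Slc7a2-203 at 0 counts and Slc7a2-201 at 892, and it also held the lowest share of Asl-205 (53.2%, against 73.2% to 77.5% in the other vehicle cultures) and of Sat1-201 (39.6%, against 48.5% to 51.2%). Over 8704 genes with at least 200 counts in every library and several transcripts, the main transcript's share lay over 20 points from the rest of the group in 3.8% of genes for this library, against 1.6% to 2.3% for the other 7. With mouse 1 left out, the mean share of the coding sequence of 1974 bases was 84.6% under vehicle and 98.5% with bilirubin. Each bilirubin culture was still above its own vehicle culture. How often shares differ this much between treatments over all genes was not computed. Exon numbers and coding sequences are those of GENCODE M39, where Slc7a2-202 is annotated longer than in the deposited files.

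**Figure D4:**
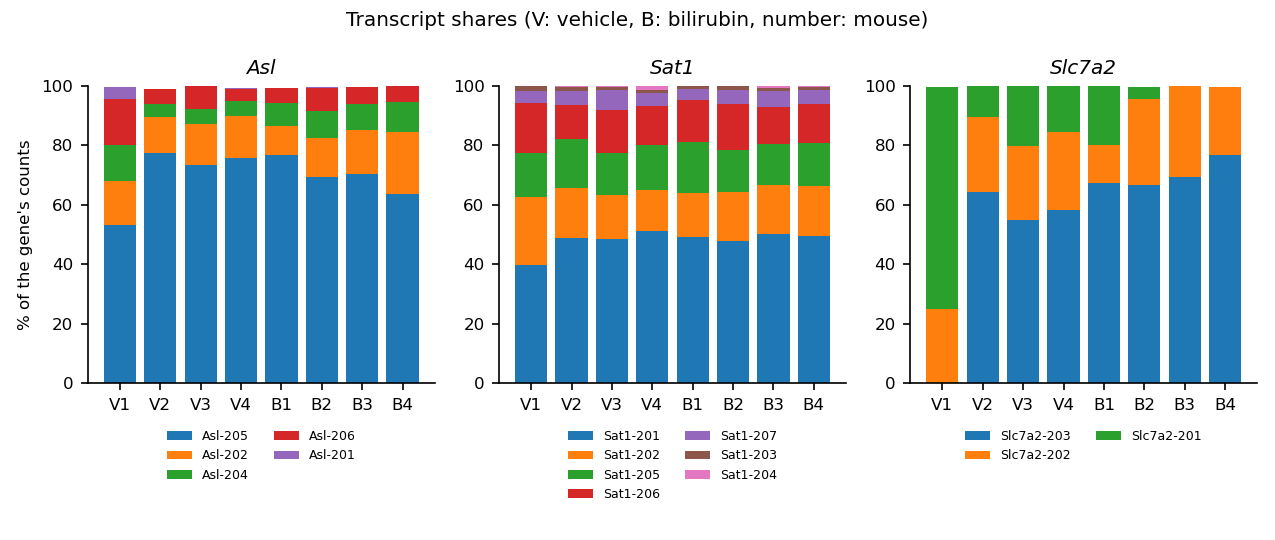
Share of a gene's counts (%, 0 to 100) on each transcript of *Asl*, *Sat1* and *Slc7a2* that reached 1% in any library, stacked for the vehicle (V) and bilirubin (B) library of each mouse. The vehicle library of mouse 1 differs from the rest in all 3 genes, most in *Slc7a2*.

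Some members share sequence with other genes. *Ass1* has a pseudogene, *Gm5424*, that is 99.5% identical over 1240 bases. *Gm5424* held 7 to 27 counts under vehicle and 60 to 125 with bilirubin, at most 2.7% of the summed counts, and the pair together gave a log2 ratio of means of 2.26 against 2.25 for *Ass1* alone. *Odc1* matched 22 other genes at 85% identity or more over at least 200 bases, of which 21 were in the table, 8 of these without counts, and 27.8% to 35.6% of the summed counts lay on the 21, *Banp* with its own reads among them. The sum over *Odc1* and these genes had a log2 ratio of means of -0.01, against 0.03 for *Odc1* alone. *Arg2* overlaps *Vti1b* on the opposite strand over 10445 bases of genome, with 479 bases shared between transcripts. *Vti1b* held 2473 to 3522 counts, far above *Arg2*, and its own difference was 0.11 ± 0.05 (log2, SE) with an edgeR adjusted p of 0.27. The lncRNA *Gm48780*, also opposite to *Arg2*, overlaps it over 997 bases and held 13 to 42 counts. Its difference was 0.77 ± 0.30 (log2, SE), with an edgeR adjusted p of 0.19. *Arg1* overlaps the antisense lncRNA *Gm36172*, which held 1 to 7 counts. The strand setting of the counting is not given in the sources used here, and the part of such reads in the values was not tested.

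The genes most like *Acod1*, by Pearson's r of log2 CPM over the 8 libraries among 10905 other genes whose log2 CPM averaged 1 or more, were *Pcx* (r = 0.998), *Saa3* (0.997), *Ass1* (0.997), *Ifngr2* (0.995) and *Hp* (0.993). *Pcx* encodes pyruvate carboxylase, which feeds the tricarboxylic acid cycle, *Saa3* and *Hp* encode the acute-phase proteins serum amyloid A3 and haptoglobin, and *Ifngr2* encodes a chain of the interferon gamma receptor. Their mean CPM went from 9.63 to 21.3 for *Pcx*, from 3.19 to 131 for *Saa3*, from 93.6 to 116 for *Ifngr2* and from 0.771 to 14 for *Hp*. For *Nos2* the list was *Wdr92*, *Plscr1*, *Ugt1a7c*, *Copa* and *Nqo1*, with r of 0.97 to 0.98, but *Nos2* was at the floor in 4 of the 8 libraries. For *Arg1* it was *Rpa1*, *Tmem60*, *Ubac1*, *Ppt2* and *Alg12*, with r of 0.89 to 0.93, and *Arg1* itself had 5 to 36 counts. Among members, r with *Acod1* was 0.92 for *Nos2*, 0.87 for *Arg2*, 0.76 for *Slc7a2* and -0.32 for *Arg1*. These are descriptions over 8 libraries that share mice and treatment. Genes whose treatment groups lie far apart relative to their spread tend to have a high r with each other. The difference itself can be small, as for *Ifngr2* with a log2 fold change of 0.31.

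Around the members, 7 lists of pathway genes held 96 genes, of which 84 were tested. Of these, 4 were called higher and 2 lower, 7.1%, near the 7.53% of all tested genes. Their median log2 fold change was -0.01, against 0.00 over all tested genes.

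Of the 22 genes around itaconate and succinate, 21 were tested, 1 was called higher and 0 lower, with a median of 0.05. The call was *Cs*, citrate synthase, at 233 ± 3 CPM under vehicle and 264 ± 9 with bilirubin (SD, n = 4), a log2 fold change of 0.18 ± 0.04 (SE; edgeR adjusted p = 0.020). *Sdha*, the succinate dehydrogenase subunit with the highest TPM of the list under vehicle, had 0.05 ± 0.03 (adjusted p = 0.42). Among the 10 tested of 13 genes of nitric oxide synthesis and its cofactor tetrahydrobiopterin 0 were called by edgeR, DESeq2 or limma-voom, 4 had an unadjusted edgeR p under 0.05 (*Gch1*, *Nosip*, *Por* and *Pts*), and the median was -0.08. *Por*, which passes electrons to cytochrome P450 enzymes and has the highest TPM of that list, had -0.21 ± 0.09 (adjusted p = 0.20), and *Nos1* and *Nos3*, the other synthases, had too few counts to be tested. In the urea cycle and other uses of arginine, 5 of 10 genes were tested and *Gatm*, which makes the creatine precursor guanidinoacetate from arginine, was called lower, from 144 ± 10 to 116 ± 16 CPM, a log2 fold change of -0.31 ± 0.05 (adjusted p = 0.0042). *Ckb*, creatine kinase B, the most abundant of that list, had -0.06 ± 0.04 (adjusted p = 0.42), and the urea cycle enzymes *Cps1* and *Otc* were not tested for lack of counts.

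In the list around ornithine, proline and glutamate, 9 genes were tested and 1 was called. This was *Glul*, glutamine synthetase, which makes glutamine from glutamate and is not itself a step from ornithine. *Glul* went from 331 ± 19 to 495 ± 75 CPM, a log2 fold change of 0.57 ± 0.08 (edgeR adjusted p = 0.0029). It was also the most abundant of the list, whose median was 0.01. Of 15 tested polyamine genes beside *Odc1* and *Sat1*, 1 was called, *Eif5a*, the translation factor modified with a piece of spermidine, from 538 ± 21 to 623 ± 54 CPM (0.21 ± 0.04, adjusted p = 0.017). *Oaz1*, the antizyme that targets ornithine decarboxylase for degradation, had the highest TPM of that list and a difference of -0.01 ± 0.03 (adjusted p = 0.93). Of 11 tested genes of cationic amino acid transport and arginine sensing, 1 was called, *Slc7a4*, a relative of the CAT transporters, which fell from 10.3 ± 1.0 to 6.86 ± 0.77 CPM (-0.59 ± 0.12, adjusted p = 0.019). *Slc3a2*, the heavy chain of several transporters, had the highest TPM there and a difference of -0.02 ± 0.06 (adjusted p = 0.90). All 13 factors known to act on *Acod1*, *Nos2* or *Arg1* were tested, and 1 was called, *Klf4*, from 20.2 ± 2.8 to 24.9 ± 3.7 CPM (0.30 ± 0.05, adjusted p = 0.0077). *Spi1*, encoding the myeloid factor PU.1, had the highest TPM of that list and 0.08 ± 0.03 (adjusted p = 0.20).

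**Figure D5:**
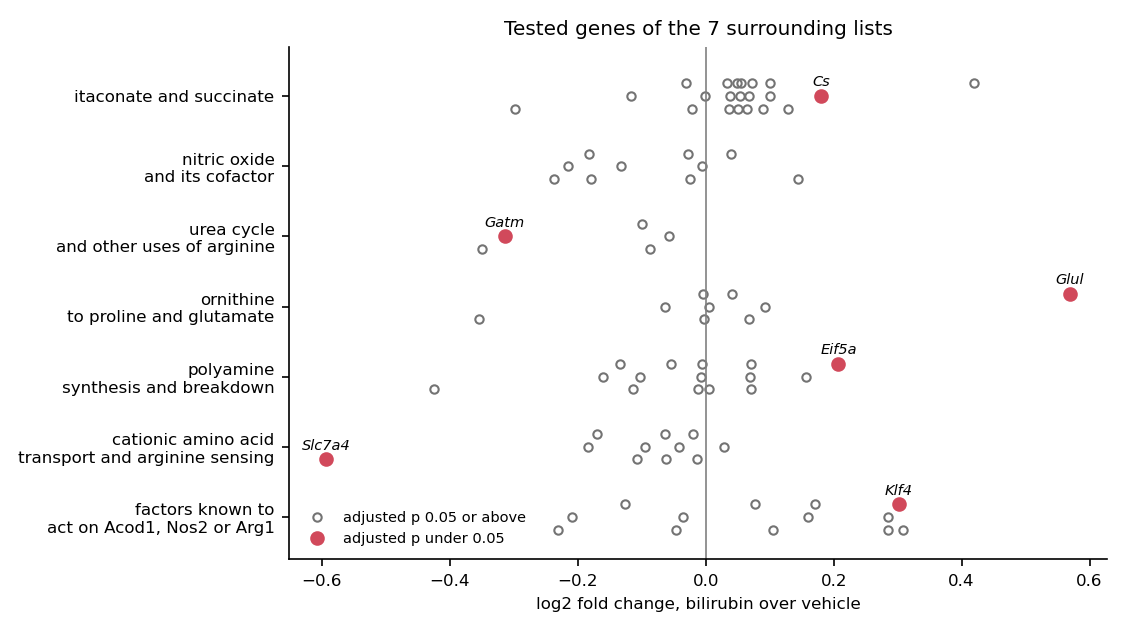
Log2 fold change of each tested gene in the 7 lists around the members, with the 6 genes under an adjusted p of 0.05 filled and named and the other 78 open. All lie between -0.6 and 0.6.

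Leaving out 1 mouse at a time left 1 to 10 of the listed genes called higher and 0 to 6 lower, the highest numbers without mouse 1. *Glul* was called whichever mouse was left out. *Cs* and *Eif5a* were not called without mouse 2, 3 or 4, *Klf4* and *Slc7a4* without mouse 3 or 4, and *Gatm* without mouse 3. *Gatm*, *Eif5a* and *Klf4* were also not called without the replicate block, where their adjusted p was 0.072, 0.079 and 0.22.

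The cultures carried macrophage markers. All 8 macrophage markers were tested, 4 were called higher (*Adgre1*, *Itgam*, *Lyz2* and *Cd14*) and 0 lower, and their summed CPM went from 24111 to 24451 under vehicle to 28567 to 30656 with bilirubin. Most of that sum was *Lyz2*, at 19145 ± 248 CPM under vehicle and 24369 ± 848 with bilirubin (SD, n = 4). The other 4 markers were not called, with log2 differences of -0.16 for *Cd68* and -0.15 for *Mertk*, each lower in all 4 mice, -0.20 for *Fcgr1* and -0.02 for *Csf1r*. Of 10 neutrophil markers 3 were tested and *S100a8*, also made by monocytes, was called higher, from 11.5 ± 1.2 to 24.4 ± 5.6 CPM (log2 fold change 1.07 ± 0.09, SE). The summed CPM of the neutrophil list, most of it *Mmp8*, was 141 to 167 under vehicle and 172 to 199 with bilirubin, and *Retnlg* was at 0. No gene of the dendritic cell, mast cell and other granulocyte, or T and NK cell lists had enough counts to be tested. Their summed CPM reached 0.622, 1.05 and 0.079 in the highest library, with *Mcpt8*, *Prss34*, *Ms4a2*, *Ncr1* and *Gzma* at 0 in all. Stromal markers summed to 2.5 to 5.8 CPM under vehicle and 2.4 to 5.8 with bilirubin, with 3 of 5 tested, 0 called by edgeR, DESeq2 or limma-voom, and 1, *Col1a1*, at an unadjusted edgeR p under 0.05. The part of the macrophage and *S100a8* differences in the values of the members was not tested.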

How the data were processed

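RNA from 8 BMDM cultures, 1 vehicle and 1 bilirubin culture from each of 4 mice, was sequenced after poly-A selection. The authors trimmed reads with Trim Galore 0.6.7 and Cutadapt 3.4, aligned them with STAR 2.7.9a to GRCm39 and quantified transcripts with Salmon 1.10.1 in the nf-core pipeline, per the methods and the submitters' processing notes. The authors deposited a gene table of expected counts, not scaled for depth or length, and per library the expected counts and TPM of 142434 transcripts.

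Rounded counts entered edgeR 4.0.16 under R 4.3.3 (TMM, filterByExpr with 10 counts and 15 in total, mouse and treatment in the model, quasi-likelihood test, Benjamini-Hochberg adjustment, threshold 0.05). Log2 CPM used a prior count of 2. The SE of an edgeR log2 fold change was its absolute value divided by the square root of the F statistic of its test. That test shares information on variance between genes, so this SE does not come from the 4 mice of a gene alone. TPM was summed per gene, and copies were searched with blastn 2.17.0 (85% identity over 200 bases). The model includes the mouse because both cultures of a number came from 1 animal. Deviations from the group means correlated within mice by 0.11, 0.13, 0.11 and -0.01, with a mean of 0.09 against -0.03 between mice. On simulated counts for 13589 genes, edgeR recovered 93.9% of changes of 1 log2 unit and all of those of 2, with 4.0% of calls false. The simulation gave every gene the same spread within and between mice. Its rates therefore apply to that setting, and not to genes as variable as *Arg1* or *Nos2* here.

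The members and lists were chosen with earlier results of these data known. Named genes were the 9 members, in each pathway list the called genes (at most 6) and the gene with the highest vehicle TPM, and the 5 genes most like *Acod1*, *Nos2* and *Arg1*, besides genes that share reads with members and some markers. Alternatives were no replicate block, DESeq2 1.42.0, limma-voom 3.58.1, other scaling (DESeq2 size factors or library size alone), no filter, a filter on CPM, a transcript length offset, and each mouse left out. Promoters came from RefSeq. Counts are 1 value per culture and intervals cover counting error only. Raw reads were not analysed here. Some marker results are not reported here.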

Additional observations from a re-analysis of the deposited data

Results flagged for a closer look

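In 26 groups of 4 values (9 genes, CPM in each treatment group and, except for *Nos2*, the change within each mouse), the extreme value was set against the nearest of the others by Dixon's ratio, which chance exceeds in about 1 in 20 groups. It was exceeded 3 times. The *Acod1* CPM of the vehicle culture of mouse 2, 12.5, was below the other 3, which lay between 14.17 and 14.25, so that a very small gap sufficed. The *Sat1* CPM of the bilirubin culture of mouse 1, 157.7, was above the 100.9 to 110.4 of the others, and with it the log2 change of *Sat1* in mouse 1, 0.23, against -0.26 to -0.20 in the others.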

How the results depend on the processing

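Of the 12 alternatives, *Acod1*, *Ass1* and *Glul* were called higher under every one, and *Nos2* under every one in which it was tested (with CPM above 1 in 4 libraries *Nos2* and *Arg1* were not tested). The alternatives reuse the same libraries, the members were chosen on this contrast, and *Nos2* passed the count filter only through its bilirubin cultures. Repeated calls of members are therefore not independent evidence. The 1033 genes called became 686 without the replicate block, 1692 with no filter, 579 with the transcript length offset, and 377 (without mouse 3) to 1910 (without mouse 1) on leaving out a mouse. With scaling by library size alone 48.7% of 1083 calls were higher, against 59.6%, and the median of all tested genes was -0.03. Pathway genes called higher, 4, became 2 without the block, 11 with no filter and 1 to 10 without a mouse, and those called lower, 2, became 1 without the block, 4 with DESeq2, 8 with no filter and 0 to 6 without a mouse. The causes were not tested. *Odc1*, 0.01, turned to -0.013 with library size alone and ranged from -0.052 (without mouse 4) to 0.143 (without mouse 1) on leaving out a mouse, with -0.011 and -0.030 without mouse 2 and 3. *Slc7a2* at 0.36 lost its call without the block, and the block changed no other member's call. *Arg2* was 1.55 to 2.12, *Acod1* 3.22 to 3.51 and *Ass1* 2.14 to 2.33 on leaving out a mouse. *Cs* was also not called with the length offset (0.18). Depth limits *Nos2* and *Arg1*, each under 70 counts per library.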
